A study of Saccharomyces cerevisiae with 8 samples.

Results

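The genes described here make amino acids other than arginine and the sulfur amino acids in budding yeast, together with GCN4, the transcription activator of the general amino acid control. They were taken by name from a list of 46 genes (6 for histidine, 7 for lysine, 5 for tryptophan, 8 for the rest of the aromatic pathway, 5 for isoleucine and valine, 5 for leucine with the branched-chain transaminases, 5 for threonine, 4 for serine, and GCN4), and all 46 were found among the 7105 genes of the deposited table. The libraries came from 8 BY4743 cultures, a diploid laboratory strain, with 2 cultures in each of 4 groups. In 3 groups the cells lacked mitochondrial DNA (ρ0) and carried a high-copy 2µ-URA3 plasmid with PDE2, which codes for a cAMP phosphodiesterase, with TIP41, which codes for a Tap42p-binding protein of TORC1 signalling, or with no insert. The remaining group kept its mtDNA (ρ+) and carried the empty vector. ρ0 cultures had grown for 24 h in 25 µg/ml ethidium bromide (EtBr), which depletes mtDNA, and ρ+ cultures had received 0 µg/ml, so loss of mtDNA and exposure to the drug cannot be told apart. All cultures grew in SC-Ura medium, which supplies amino acids through casamino acids and tryptophan, and were harvested in log phase. The strain is his3Δ1/his3Δ1 leu2Δ0/leu2Δ0 ura3Δ0/ura3Δ0 met15Δ0/MET15 LYS2/lys2Δ0, so it cannot complete histidine or leucine synthesis in any group and has a single working copy of LYS2.

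Yeast makes histidine, lysine, the aromatic and the branched-chain amino acids by separate chains of enzymes, several of which sit in mitochondria. When any amino acid runs short, the kinase Gcn2p raises translation of GCN4 mRNA, and Gcn4p binds TGACTCA sites before genes of many of these pathways at once, so GCN4 activity can change with no change in its mRNA. Pathway regulators act beside it: Leu3p on leucine and branched-chain genes through CCGNNNNCGG sites when α-isopropylmalate is present, and Lys14p on lysine genes through TCCNNNGGA sites when α-aminoadipate semialdehyde is present.

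The 3 motifs were searched in the 500 bases before the coding start, read from the RefSeq R64 genome, on both strands. TGACTCA was found before 20 of the 46 genes (43.5%), against 4.0% of 6000 genes. CCGNNNNCGG was found before 8 of the 46 (17.4%), against 3.28% of all, and TCCNNNGGA before 7 of the 46 (15.2%), against 5.9%. Both of these are their own reverse complement, and no motif contains another. A match is a stretch of letters and not a measured binding site. The stretches below belong to the genes whose levels differed most in the comparisons that follow, are written 5′ to 3′ on the strand of the gene, and have the motif in capitals.
HIS4 Gcn4 motif: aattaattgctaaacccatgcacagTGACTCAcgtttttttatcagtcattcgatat
HIS5 Gcn4 motif: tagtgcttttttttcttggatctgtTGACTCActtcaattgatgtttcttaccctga
ARO1 Gcn4 motif: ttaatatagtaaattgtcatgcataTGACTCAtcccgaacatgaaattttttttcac
HOM3 Gcn4 motif: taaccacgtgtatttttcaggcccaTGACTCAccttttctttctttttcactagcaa
LEU1 Gcn4 motif: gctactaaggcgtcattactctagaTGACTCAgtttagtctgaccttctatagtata
LEU1 Leu3 motif, distal: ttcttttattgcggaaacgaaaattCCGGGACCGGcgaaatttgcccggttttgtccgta
LEU1 Leu3 motif, proximal: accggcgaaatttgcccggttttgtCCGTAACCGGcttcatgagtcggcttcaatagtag
BAT1 Leu3 motif: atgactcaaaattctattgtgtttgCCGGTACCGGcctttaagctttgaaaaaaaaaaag
ARO7 Leu3 motif: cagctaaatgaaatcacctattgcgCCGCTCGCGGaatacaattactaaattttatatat
BAT2 Leu3 motif: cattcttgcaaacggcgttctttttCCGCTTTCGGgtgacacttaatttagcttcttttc
LYS9 Lys14 motif, distal: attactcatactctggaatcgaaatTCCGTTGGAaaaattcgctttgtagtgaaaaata
LYS9 Lys14 motif, proximal: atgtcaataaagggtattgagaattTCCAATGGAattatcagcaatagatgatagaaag

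In R64 coordinates the Gcn4 stretches lie at chrIII:68501-68557 on the minus strand for HIS4, chrIX:142701-142757 on the plus strand for HIS5, chrIV:704236-704292 on the plus strand for ARO1, chrV:258210-258266 on the minus strand for HOM3 and chrVII:478922-478978 on the minus strand for LEU1. Their motifs start 199, 202, 223, 283 and 301 bases before the coding start, in that order of genes. The Leu3 stretches of LEU1 lie at chrVII:478835-478894 and chrVII:478805-478864, that of BAT1 at chrVIII:517360-517419 on the plus strand, that of ARO7 at chrXVI:675928-675987 on the minus strand and that of BAT2 at chrX:705385-705444 on the plus strand. The LYS9 stretches lie at chrXIV:715580-715638 and chrXIV:715518-715576 on the minus strand, with motifs starting 225 and 163 bases before the coding start. BAT1 also has a Gcn4 motif, which starts 171 bases before its coding start and 24 bases before its Leu3 motif. GCN4, LYS4, ARO2, TRP1, HOM6 and SER3 had none of the 3 motifs in the window.

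Libraries held 1389579 to 4884282 fragments in genes, of which the 46 genes took 1.21% to 1.41%, and the lowest count of any of them in any library was 57. All 46 passed the filter on low counts, with 5832 genes tested in all. LEU2 was at 0 in all 8 libraries, while HIS3, of which the his3Δ1 allele removes a part, was at 57.2 to 86.3 CPM. Of 9 mating genes that diploids keep low, the very short MFA1 and MFA2 had at most 1 fragment in any library and the other 7 had 1.18 to 27.0 CPM. STE3, a pheromone receptor gene, rose with loss of mtDNA (8.28 and 9.28 CPM in ρ0 vector against 1.44 and 2.10 CPM in ρ+ cells, log2 FC 2.41, adjusted p = 0.00659), as did the receptor gene STE2 (20.9 and 21.0 against 11.9 and 9.12 CPM, log2 FC 0.92, adjusted p = 0.026), and their part in the results was not tested. URA3, the plasmid marker, was at 1915 and 2700 CPM in ρ0 PDE2 and 5658 and 7211 CPM in ρ0 TIP41, against 16950 and 15620 CPM in ρ0 vector cells. The marker's level thus moved with the PDE2 and TIP41 comparisons, and its part in the results was not tested. Levels below are CPM, the fragment count of a gene relative to its library's total after TMM scaling, given for replicate 0 and then replicate 1 of a group. Changes are log2 fold changes (log2 FC) with their standard error (SE) from edgeR's quasi-likelihood test, called at a Benjamini-Hochberg adjusted p under 0.05 over all genes tested. Unless stated, the fit had no replicate term, although libraries of the same number deviated together from their group means. Different experimenters made replicates 0 and 1, and each level is a share of a culture's polyadenylated RNA, in which fewer expressing cells and less RNA per cell cannot be told apart.

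The mRNA of GCN4 was level across the groups. It had 1444 and 1137 CPM in ρ0 PDE2, 1369 and 1182 CPM in ρ0 TIP41, 1415 and 1128 CPM in ρ0 vector, and 1293 and 1245 CPM in ρ+ vector cells. All groups overlapped, and in each of them replicate 0 was the higher. Its log2 FC with loss of mtDNA was 0.00 (SE 0.18, adjusted p = 0.996), and no alternative called it in any comparison. PCL5, the cyclin that with Pho85p targets Gcn4p for breakdown and is itself a Gcn4p target, had 136 and 192 CPM in ρ0 vector cells against 58.7 and 67.3 CPM in ρ+ cells. Its log2 FC was 1.40 (SE 0.17, adjusted p = 1.09e-04), and of the 11 regulator genes examined no other passed with loss of mtDNA. With PDE2 it fell to 84.1 and 67.3 CPM (log2 FC −1.13, SE 0.17, adjusted p = 0.00401 against ρ0 vector, passing in 12 of 15 alternatives), and again no other regulator passed. In ρ0 TIP41 cells PCL5 was at 105 and 101 CPM (log2 FC −0.66, SE 0.16, adjusted p = 0.129 against ρ0 vector). It passed there with the replicate number as a block (0.0183). PDE2 against TIP41 did not call PCL5 (log2 FC −0.47, SE 0.17, adjusted p = 0.56). CPC2, a ribosome-associated protein that restrains the general control, had 2218 and 1639 CPM in ρ0 vector cells against 2823 and 2594 CPM in ρ+ cells (log2 FC −0.49, SE 0.18, adjusted p = 0.0802). With the replicate number as a block, CPC2 passed both with loss of mtDNA (adjusted p = 0.0177) and with PDE2 (log2 FC 0.46, 0.0487), and LYS14 passed with PDE2 (log2 FC −0.44, 0.046). The other 9 regulators had log2 fold changes of −0.24 to 0.30 with loss of mtDNA, with GCN2 at 0.18, GCN1 at 0.04, GCN20 at −0.01, LEU3 at 0.30 and LYS14 at 0.30.

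In ρ0 vector relative to ρ+ vector cells, called here loss of mtDNA, LYS9, ARO7, ARO2, LEU1 and BAT1 fell and HIS5 rose. Thus 1 of the 46 genes rose, against 7.49% of all genes tested, and 5 fell, against 6.38% of all. The median log2 fold change was −0.05 over the 46 genes and 0.01 over all genes, so as a set they stood near the rest of the transcriptome. With replicate number as a block, 3 rose and 8 fell. ARO1 (adjusted p = 0.0421) and HOM3 (0.0298) were added to the genes that rose, and LYS4 (0.0179), ILV3 (0.0355) and LEU9 (0.0342) to those that fell. The share of all genes called with the block is not given here, so the added calls are not read as particular to these genes.

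**Figure D1:**
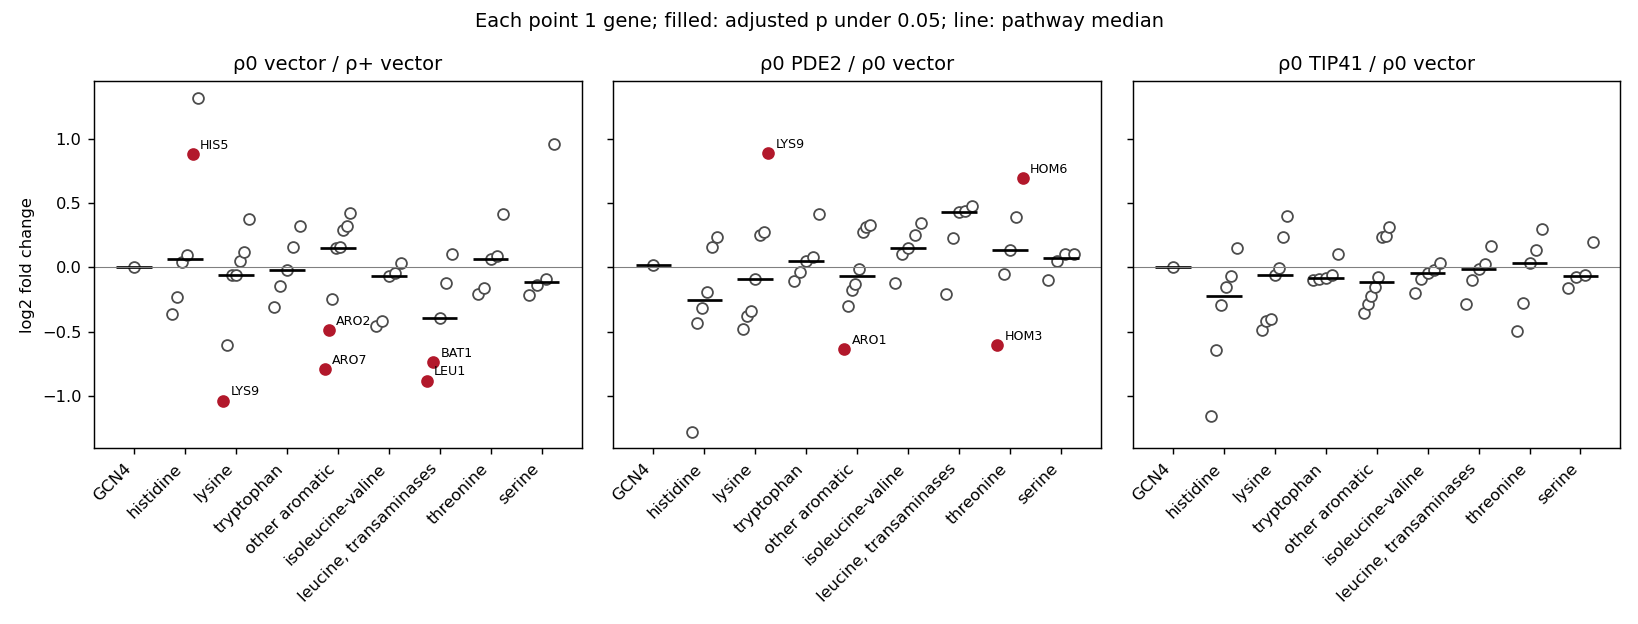
Log2 fold changes (vertical axis) of the 46 genes by pathway (horizontal axis) for ρ0 vector over ρ+ vector, ρ0 PDE2 over ρ0 vector and ρ0 TIP41 over ρ0 vector; each point is 1 gene, filled where its adjusted p is under 0.05, and lines are pathway medians. The leucine group has a median of −0.39 in the first panel and 0.43 in the second, panels that share the ρ0 vector libraries, and no gene is filled in the TIP41 panel.

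LYS9, the saccharopine dehydrogenase of lysine synthesis that forms saccharopine with glutamate, had 65.5 and 56.9 CPM in ρ0 vector cells against 120 and 133 CPM in ρ+ cells. The groups did not overlap, and the log2 FC was −1.04 (SE 0.15, adjusted p = 4.03e-04). It passed in every one of 15 alternatives, with adjusted p-values of 2.52e-06 to 0.0174. The other lysine genes did not share the change at this threshold. LYS4, the mitochondrial homoaconitase, had 177 and 106 CPM in ρ0 vector cells against 206 and 225 CPM in ρ+ cells (log2 FC −0.60, SE 0.20, adjusted p = 0.0633), with ρ0 vector replicate 1 well below the rest. LYS20 and LYS21, isozymes of homocitrate synthase at the head of the pathway, had log2 fold changes of 0.37 and −0.06. LYS20 was at 157 and 240 CPM in ρ0 vector cells against 164 and 141 CPM in ρ+ cells, and LYS21 was at 192 and 199 CPM against 211 and 196 CPM. Both pairs of groups overlapped. LYS2, α-aminoadipate reductase, heterozygous in this strain, had 71.7 and 83.5 CPM in ρ0 vector cells and 71.0 and 80.6 CPM in ρ+ cells, with a log2 FC of 0.05 (SE 0.15, adjusted p = 0.875). LYS12 and LYS1 had log2 fold changes of −0.06 and 0.12. Of these other lysine genes, LYS21, LYS12 and LYS1 also hold a Lys14 motif.

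The leucine group had the lowest pathway median. LEU1, isopropylmalate isomerase, an enzyme with an iron-sulfur cluster, had 444 and 282 CPM in ρ0 vector cells against 736 and 598 CPM in ρ+ cells (log2 FC −0.88, SE 0.21, adjusted p = 0.0176). The groups did not overlap, but the call was lost without ρ0 vector replicate 1 (adjusted p = 0.0722) or ρ+ vector replicate 0 (0.178) and by limma on log2 FPKM (0.0749 and 0.0755). BAT1, the mitochondrial branched-chain aminotransferase, had 448 and 396 CPM in ρ0 vector cells against 746 and 660 CPM in ρ+ cells (log2 FC −0.74, SE 0.16, adjusted p = 0.00636), and lost its call only without ρ+ vector replicate 0 (adjusted p = 0.0954). BAT2, its cytosolic counterpart, had 74.9 and 86.3 CPM against 70.3 and 81.3 CPM in ρ+ cells (log2 FC 0.11, SE 0.14, adjusted p = 0.664). The length-scaled ratio of BAT1 to BAT2, from the deposited FPKM values, was 6.39 and 4.35 in ρ0 vector cells and 11.3 and 7.70 in ρ+ cells. Their coding sequences are 68.9% identical, and their longest shared stretch is 17 bases. LEU4 and LEU9, isozymes of α-isopropylmalate synthase, had log2 fold changes of −0.12 and −0.39. LEU9 was at 203 and 205 CPM in ρ0 vector cells, below both ρ+ cultures at 260 and 276 CPM, and LEU4 was at 242 and 317 CPM, overlapping ρ+ cells at 280 and 331 CPM. OAC1, the mitochondrial carrier that exports α-isopropylmalate, also fell (log2 FC −0.51, SE 0.14, adjusted p = 0.0209), passing in 9 of 15 alternatives (adjusted p up to 0.18).

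Upstream in the branched-chain pathway, ILV5 and ILV3 were lower in ρ0 vector cells without passing. ILV5, acetohydroxyacid reductoisomerase, had 1238 and 916 CPM in ρ0 vector cells against 1552 and 1323 CPM in ρ+ cells (log2 FC −0.42, SE 0.18, adjusted p = 0.134). ILV3, dihydroxyacid dehydratase, had 538 and 360 CPM against 679 and 553 CPM in ρ+ cells (log2 FC −0.46, SE 0.18, adjusted p = 0.116). In both, each ρ0 vector library was below each ρ+ library. ILV1, ILV2 and ILV6, which code for threonine deaminase and the subunits of acetolactate synthase, had log2 fold changes of −0.05, −0.07 and 0.03.

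In the aromatic pathway ARO7 and ARO2 fell, while TRP2 and TRP3, the subunits of anthranilate synthase, which also uses chorismate, had log2 fold changes of −0.02 (adjusted p = 0.936) and −0.14 (0.554). ARO7, the chorismate mutase that leads to phenylalanine and tyrosine, had 57.6 and 50.8 CPM in ρ0 vector cells against 96.8 and 90.5 CPM in ρ+ cells (log2 FC −0.79, SE 0.14, adjusted p = 0.00183). It passed in 13 of 15 alternatives and just missed in the 2 on log2 FPKM. ARO2, chorismate synthase, had 353 and 344 CPM against 515 and 461 CPM in ρ+ cells (log2 FC −0.49, SE 0.14, adjusted p = 0.0371). The groups did not overlap, but ARO2 passed in only 6 of 15 alternatives, and its adjusted p was 0.246 without ρ+ vector replicate 0, 0.108 without ρ0 vector replicate 1, 0.0774 without ρ+ vector replicate 1, 0.0531 and 0.0554 without ρ0 TIP41 replicates 0 and 1, and 0.0527 without ρ0 PDE2 replicate 1. ARO1, the 5-step shikimate enzyme, had 292 and 394 CPM in ρ0 vector cells against 259 and 253 CPM in ρ+ cells (log2 FC 0.42, SE 0.15, adjusted p = 0.0799). ARO3 and ARO4, isozymes of DAHP synthase that phenylalanine and tyrosine inhibit, had log2 fold changes of 0.29 and 0.32. ARO3 was at 215 and 297 CPM against 229 and 187 CPM, and ARO4 at 555 and 701 CPM against 533 and 472 CPM, with ρ0 vector replicate 1 highest of the 4 libraries in both. Of the tryptophan genes, TRP4 had 65.9 and 96.0 CPM in ρ0 vector cells and 107 and 90.5 CPM in ρ+ cells (log2 FC −0.31), and TRP1 had 65.9 and 69.0 CPM and 51.5 and 57.5 CPM (0.32). TRP4 overlapped between the groups and TRP1 did not, and neither passed.

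Among the histidine genes, HIS4 and HIS5 differed widely between the ρ0 vector replicates. HIS5, histidinol-phosphate aminotransferase, had 109 and 188 CPM in ρ0 vector cells against 77.9 and 84.1 CPM in ρ+ cells (log2 FC 0.88, SE 0.21, adjusted p = 0.0234). The groups did not overlap, but without ρ0 vector replicate 1 the log2 FC was 0.44 (adjusted p = 0.0956). Leaving out either ρ+ library also ended the call (0.206 for replicate 0 and 0.103 for replicate 1), as did leaving out ρ0 TIP41 replicate 1 (0.0502), limma on log2 FPKM (0.0711 and 0.0717) and the fit of only the groups compared (0.0806). HIS4, which catalyses 3 steps of the pathway, had 244 and 708 CPM in ρ0 vector cells against 184 and 198 CPM in ρ+ cells. Its log2 FC of 1.32 was the largest of the 46 genes but had an SE of 0.60 (adjusted p = 0.244), and it passed only without ρ0 vector replicate 0 (adjusted p = 0.00632). HIS1, HIS2, HIS6 and HIS7 had log2 fold changes of 0.04, −0.23, −0.36 and 0.09.

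**Figure D2:**
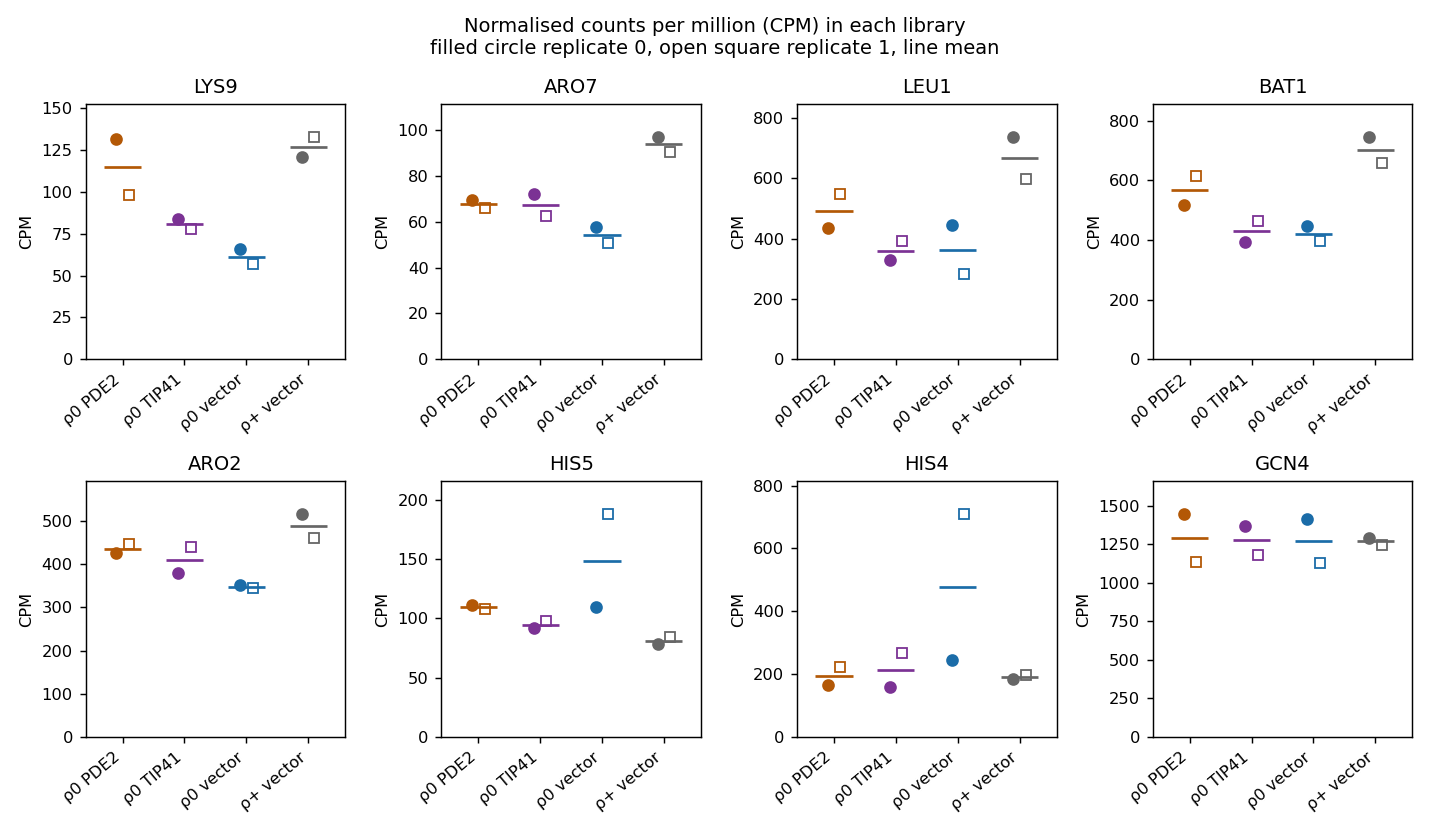
CPM (vertical axes, from 0) of 8 genes in each library of the ρ0 PDE2, ρ0 TIP41, ρ0 vector and ρ+ vector groups; filled circles are replicate 0, open squares replicate 1 and lines group means. LYS9, ARO7, LEU1 and BAT1 are lower in both ρ0 vector libraries than in both ρ+ libraries, while HIS4 is at 708 CPM in ρ0 vector replicate 1 and at 244 CPM in replicate 0.

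Threonine and serine genes mostly stayed near their ρ+ levels. HOM3, aspartate kinase at the start of threonine and methionine synthesis, had 289 and 341 CPM in ρ0 vector cells against 240 and 231 CPM in ρ+ cells (log2 FC 0.42, SE 0.14, adjusted p = 0.0568), without overlap. HOM6, homoserine dehydrogenase, had 252 and 269 CPM against 337 and 262 CPM (log2 FC −0.21, SE 0.15, adjusted p = 0.399). SER3, an isozyme of 3-phosphoglycerate dehydrogenase, had 128 and 177 CPM in ρ0 vector cells against 92.1 and 59.6 CPM in ρ+ cells. Its log2 FC of 0.96 (SE 0.38) did not pass (adjusted p = 0.174), although DESeq2 gave an adjusted p of 0.0146. SER33, the other isozyme, had 99.8 and 88.0 CPM against 102 and 119 CPM in ρ+ cells (log2 FC −0.21). The length-scaled ratio of SER3 to SER33 was 1.26 and 2.01 in ρ0 vector cells and 0.888 and 0.503 in ρ+ cells. SRG1, the non-coding RNA made from the SER3 promoter, whose transcription represses SER3, was at 67.7 and 105 CPM in ρ0 vector cells and 29.7 and 51.2 CPM in ρ+ cells (log2 FC 1.19, SE 0.28, adjusted p = 0.0224, passing in 10 of 15 alternatives). SRG1 and SER3 share a locus in the deposited table and run on the same strand, so fragments could be divided between them.

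ρ0 vector replicate 1 was the highest of the 8 libraries for 14 of the 46 genes and the lowest for 12, whereas no other library was highest for more than 10 or lowest for more than 8. This ranking was not made over all genes, so it is not read as particular to the 46. Taking the ratio of replicate 1 to replicate 0 within a group (CPM + 0.5), 4 genes were over 1.5-fold higher in ρ0 vector replicate 1, against 5.4% of all genes tested, and 2 were over 1.5-fold lower, against 4.12%. By the plain ratio of CPM, the higher ones were HIS4 (2.91-fold), LYS1 (1.79-fold), HIS5 (1.72-fold) and LYS20 (1.53-fold), and the lower ones were LYS4 (0.597-fold) and LEU1 (0.634-fold). These ratios compare a pair of libraries and carry no test. By pathway, the median log2 ratio was 0.45 for histidine, 0.27 for tryptophan and −0.43 for isoleucine and valine. In ρ0 PDE2 cells 1 of the 46 genes was over 1.5-fold higher in replicate 1 and 0 lower, against 4.54% and 4.96% of all genes. In ρ0 TIP41 cells these were 2 and 0, against 4.41% and 3.72%, and in ρ+ vector cells 0 and 1, against 4.08% and 3.29%. Over all groups, replicate 1 against replicate 0 called none of the 46 genes (edgeR with a replicate term), against 1.05% of all genes higher and 0.634% lower. At an unadjusted p under 0.05 this test had 4 of the 46 genes, beside 707 of all 5832. DESeq2 and limma called 0 of the 46. ARG1, argininosuccinate synthase, had 412 CPM in ρ0 vector replicate 1 and 88.6 CPM in replicate 0, against 46.6 and 35.1 CPM in ρ+ cells. Of 9 arginine genes, 6 were over 1.5-fold higher in ρ0 vector replicate 1 and 0 lower, against the same 5.4% and 4.12% of all genes. CPA1, at 617 CPM in replicate 0 and 597 CPM in replicate 1, was not among the 6.

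**Figure D3:**
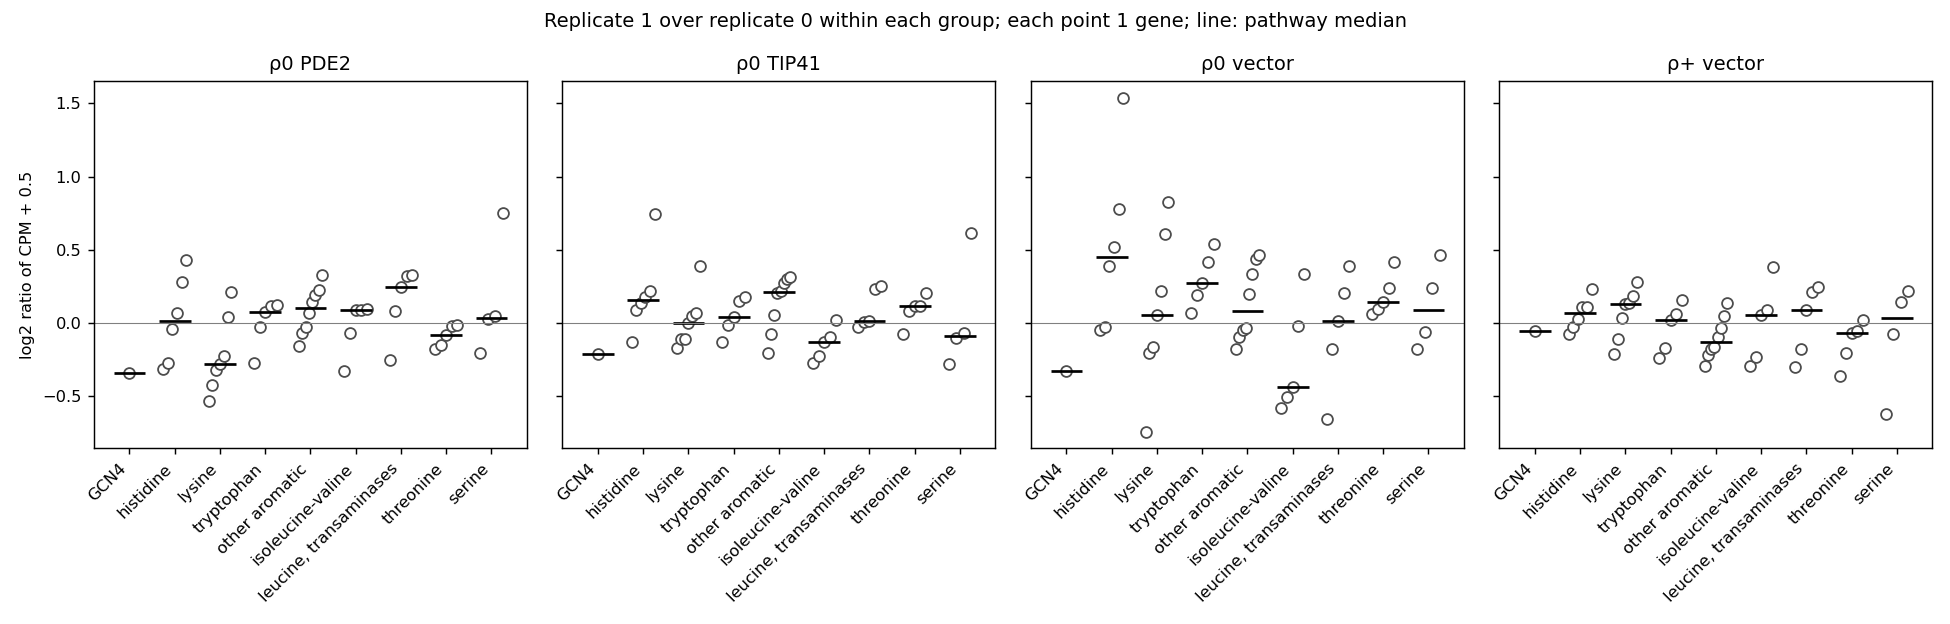
Log2 ratio of replicate 1 to replicate 0 (vertical axis, CPM + 0.5) for the 46 genes by pathway (horizontal axis) in each group; each point is 1 gene and lines are pathway medians. The spread is widest in ρ0 vector cells, where HIS4 reaches 1.54 and the isoleucine and valine median is −0.43.

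PDE2 in ρ0 cells raised LYS9 and HOM6 and lowered ARO1 and HOM3 relative to the empty vector. Thus 2 of the 46 genes rose, against 1.3% of all genes, and 2 fell, against 0.995% of all. The median log2 fold change was 0.07 over the 46 genes and −0.02 over all. This comparison and loss of mtDNA share the ρ0 vector libraries, so their values are not independent of each other. None of the 46 genes was called by limma on log2 FPKM or when only the 2 groups were fitted. Over all genes, limma called 6 of 5832 and the fit of only the 2 groups 11 of 5755, against 134 of 5832 in the main fit. Few calls were thus made anywhere in these settings. LYS9 lost its call without ρ0 PDE2 replicate 0 (adjusted p = 0.101) or ρ0 vector replicate 1 (0.0535). Except for ρ0 vector replicate 0, leaving out any single library ended the calls of ARO1 and HOM3 (adjusted p of 0.0603 to 0.239 for ARO1 and 0.0525 to 0.161 for HOM3). That of HOM6 held only without replicate 0 of ρ0 vector or of ρ+ vector, and was lost without each other library (0.0525 to 0.196).

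LYS9 had 131 and 98.0 CPM in ρ0 PDE2 against 65.5 and 56.9 CPM in ρ0 vector cells (log2 FC 0.89, SE 0.15, adjusted p = 0.00853). The groups did not overlap, and both ρ0 PDE2 libraries lay near the 120 and 133 CPM of ρ+ cells, with a log2 FC of −0.15 against ρ+ (SE 0.15, adjusted p = 0.662). HOM6 had 446 and 395 CPM against 252 and 269 CPM in ρ0 vector cells (log2 FC 0.69, SE 0.15, adjusted p = 0.0349), and 337 and 262 CPM in ρ+ cells. Thus the ρ0 PDE2 libraries were the highest of all groups. HOM3 had 218 and 197 CPM against 289 and 341 CPM in ρ0 vector cells (log2 FC −0.60, SE 0.14, adjusted p = 0.0385), so HOM3 and HOM6, enzymes of the same pathway, went in opposite directions. ARO1 had 223 and 218 CPM in ρ0 PDE2 against 292 and 394 CPM in ρ0 vector cells (log2 FC −0.64, SE 0.15, adjusted p = 0.0445). Both ρ0 PDE2 libraries were also below both ρ+ libraries, at 259 and 253 CPM, but by a log2 FC of only −0.22 (adjusted p = 0.495).

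**Figure D4:**
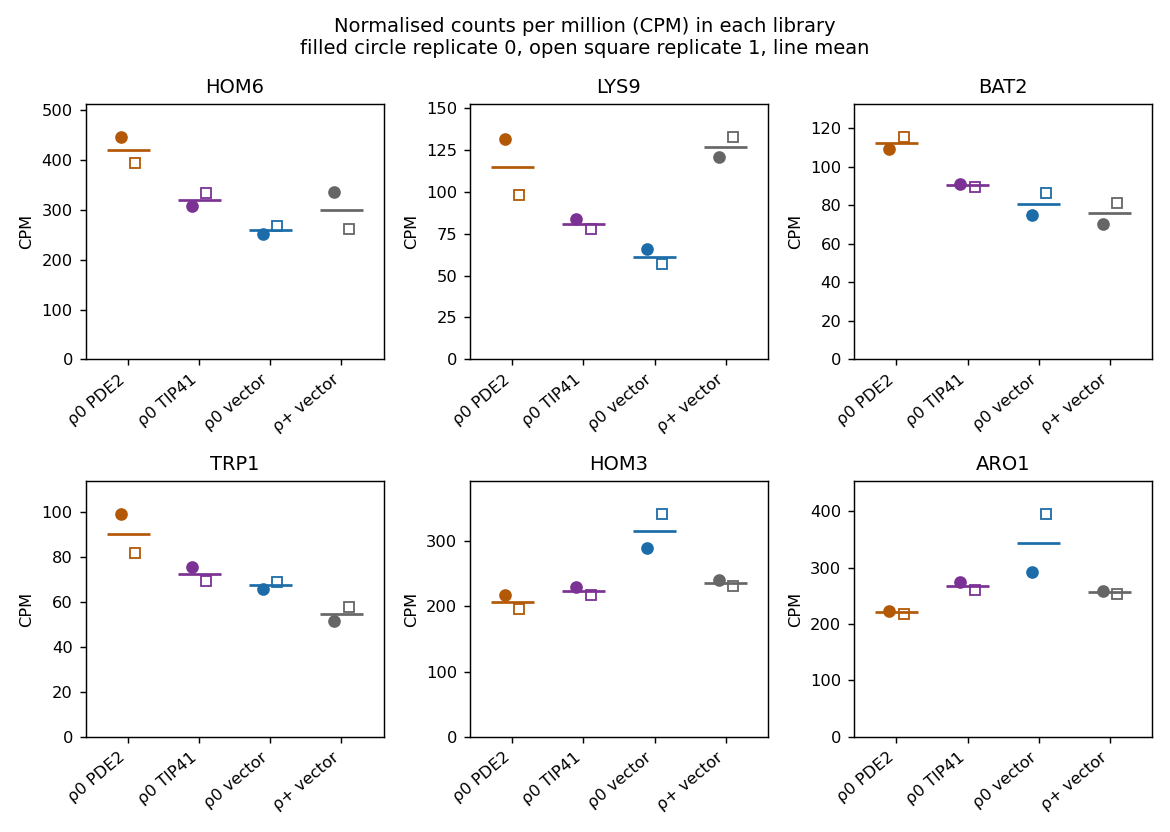
CPM (vertical axes, from 0) of HOM6, LYS9, BAT2, TRP1, HOM3 and ARO1 in each library of the ρ0 PDE2, ρ0 TIP41, ρ0 vector and ρ+ vector groups; filled circles are replicate 0, open squares replicate 1 and lines group means. HOM6 is at 446 and 395 CPM in ρ0 PDE2 cells, above every other library, and HOM3 is at 218 and 197 CPM, below both ρ0 vector libraries.

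Genes that had fallen with loss of mtDNA were mostly higher with PDE2 without passing. They were chosen by low levels in the ρ0 vector libraries, which are also the reference here, so higher values are expected from that choice. A reversal by PDE2 was not tested. LEU1 had 436 and 549 CPM in ρ0 PDE2 against 444 and 282 CPM in ρ0 vector cells (log2 FC 0.44, SE 0.21, adjusted p = 0.281), and the groups overlapped. BAT1 had 519 and 616 CPM against 448 and 396 CPM (log2 FC 0.43, SE 0.16, adjusted p = 0.151), without overlap. ARO7 and ARO2 had log2 fold changes of 0.31 (adjusted p = 0.258) and 0.33 (0.23). BAT2 had 109 and 115 CPM in ρ0 PDE2 against 74.9 and 86.3 CPM in ρ0 vector cells (log2 FC 0.48, SE 0.13, adjusted p = 0.0691) and passed with the replicate block (0.0234). HIS4 had 166 and 224 CPM in ρ0 PDE2 against 244 and 708 CPM in ρ0 vector cells, a log2 FC of −1.28 with an SE of 0.60 (adjusted p = 0.337), and HIS5 had 111 and 108 CPM against 109 and 188 CPM (−0.43, adjusted p = 0.29).

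Against ρ+ cells, ρ0 PDE2 cells had 2 genes higher, against 3.02% of all genes, and none lower, against 2.11% (edgeR; 1 lower at an unadjusted p under 0.05, and 0 by DESeq2). TRP1, phosphoribosylanthranilate isomerase, had 98.9 and 81.8 CPM in ρ0 PDE2 against 51.5 and 57.5 CPM in ρ+ cells (log2 FC 0.74, SE 0.15, adjusted p = 0.0103). BAT2 had 109 and 115 CPM against 70.3 and 81.3 CPM (log2 FC 0.58, SE 0.14, adjusted p = 0.0208). TRP1 lost its call without ρ0 PDE2 replicate 0 (adjusted p = 0.089) or ρ+ vector replicate 0 (0.172), and BAT2 without any 1 of the 4 libraries compared (0.0597 to 0.26). Both also missed with DESeq2 (0.0508 for TRP1 and 0.137 for BAT2) and with limma on log2 FPKM (0.0842 and 0.0843 for TRP1, 0.233 and 0.236 for BAT2). SER3 had 120 and 203 CPM in ρ0 PDE2 against 92.1 and 59.6 CPM in ρ+ cells (log2 FC 1.06, SE 0.38, adjusted p = 0.232), without overlap, and was the 1 gene that DESeq2 called (adjusted p = 0.00919). In the deposited table TRP1 shares its locus with the overlapping YDR008C, and its fragments could be divided between them. With the replicate block 3 genes rose and 1 fell, with HOM6 (adjusted p = 0.0338) and ARO7 (0.0396) added. Over all 5832 genes tested the block called 338 higher and 225 lower, against 176 and 123 without it, so calls rose throughout.

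TIP41 in ρ0 cells called none of the 46 genes relative to the empty vector. The test of edgeR found 6 at an unadjusted p under 0.05 (2 higher and 4 lower), and DESeq2 and limma called 0. The share of all genes at the unadjusted threshold is not given here, so the 6 are not read as particular to these genes. At the adjusted threshold 0.137% of all genes rose and 0.274% fell, so few calls were made anywhere in this comparison. The median log2 fold change was −0.07 over the 46 genes and 0.01 over all. LYS9 had 83.5 and 77.4 CPM in ρ0 TIP41 against 65.5 and 56.9 CPM in ρ0 vector cells (log2 FC 0.40, SE 0.16, adjusted p = 0.404), without overlap. HIS5 had 91.7 and 97.7 CPM against 109 and 188 CPM (log2 FC −0.65, SE 0.21, adjusted p = 0.355), and HIS4 had 160 and 268 CPM against 244 and 708 CPM (−1.16, SE 0.60, adjusted p = 0.606). Any call made without ρ0 vector replicate 0 rests on replicate 1 as the only library of that group. HIS4 and HIS5 were at their highest of all libraries in that replicate, at 708 and 188 CPM.

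Against ρ+ cells, ρ0 TIP41 cells had 3 genes lower, against 1.83% of all genes, and none higher, against 3.41% (edgeR). At an unadjusted p under 0.05, 1 of the 46 genes was higher, a threshold at which the share of all genes is not given here. DESeq2 called 0 of the 46 higher. LEU1 had 329 and 391 CPM in ρ0 TIP41 against 736 and 598 CPM in ρ+ cells (log2 FC −0.89, SE 0.21, adjusted p = 0.0301). BAT1 had 395 and 464 CPM against 746 and 660 CPM (log2 FC −0.71, SE 0.16, adjusted p = 0.015). LYS9 had 83.5 and 77.4 CPM against 120 and 133 CPM (log2 FC −0.64, SE 0.15, adjusted p = 0.0206). None of the 3 overlapped ρ+ cells, but each lost its call when any 1 of the 4 libraries compared was left out (adjusted p of 0.0533 to 0.278), and LYS9 also with DESeq2 (0.0866). With the replicate block 5 genes fell, with ARO7 (adjusted p = 0.03) and LEU9 (0.0159) added. The share of all genes called with the block is not given for this comparison, so the added calls are not read as particular to these genes. OAC1 fell as well (log2 FC −0.93, SE 0.14, adjusted p = 9.19e-04). PDE2 against TIP41 in ρ0 cells called none of the 46 genes (edgeR), against 0.12% of all genes higher and 0.274% lower. At an unadjusted p under 0.05, 5 of the 46 were higher and 0 lower, beside 153 and 231 of all 5832. DESeq2 and limma called 0 of the 46. LYS9 (0.49), LEU1 (0.46), BAT1 (0.40) and HOM6 (0.39) had the largest log2 fold changes.

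Set side by side over the 4 conditions, the leucine and transaminase genes had the lowest pathway median in 5 of the 6 ρ0 libraries, the exception being ρ0 PDE2 replicate 1, where lysine genes were lower (−0.33). Their median log2 level relative to the mean of the ρ+ libraries was −0.34 and −0.19 in ρ0 PDE2, −0.49 and −0.49 in ρ0 TIP41, −0.40 and −0.39 in ρ0 vector, and −0.04 and 0.04 in ρ+ vector cells. The isoleucine and valine genes had medians of −0.15 and −0.06, −0.14 and −0.41, −0.15 and −0.34, and −0.03 and 0.03 in the same groups. Threonine genes were highest in ρ0 PDE2, at 0.21 and 0.20, against −0.14 and 0.10 in ρ0 vector cells. Histidine genes had medians of −0.14 and −0.09 in ρ0 PDE2, −0.27 and −0.14 in ρ0 TIP41, −0.07 and 0.18 in ρ0 vector, and −0.04 and 0.03 in ρ+ cells, so the ρ0 vector replicates differed in sign. Serine genes, apart from SER3, stayed within −0.21 to 0.20 log2 units in all comparisons described here. Differences between pathways were not tested. The 20 genes without values by library here ran from 28.1 CPM (LYS1) to 707 CPM (THR4), and their log2 fold changes spanned −0.36 to 0.16 with loss of mtDNA, −0.48 to 0.39 with PDE2 and −0.41 to 0.25 with TIP41, with none called.

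Sorted by motif, the 8 genes with a Leu3 match (ARO7, ILV2, ILV5, LEU1, LEU9, BAT1, BAT2 and HOM2) had a median log2 fold change of −0.41 with loss of mtDNA, and 3 of them fell (ARO7, LEU1 and BAT1), whereas the 38 without one had a median of −0.01, with 1 that rose and 2 that fell. Over all genes tested, 7.49% rose and 6.38% fell with loss of mtDNA. The motifs were chosen with earlier results of these data known, so the split is no independent result. With PDE2, a comparison that shares the ρ0 vector libraries, the medians with and without a Leu3 match were 0.28 and 0.04. The 20 genes with a Gcn4 match had medians of 0.05 with loss of mtDNA, −0.12 with PDE2 and −0.12 with TIP41, against −0.08, 0.13 and 0.00 in the 26 without. With TIP41, 18 of the 20 had a negative sign, against 13 of the 26 and 2832 of all 5832 genes tested, and none of the 46 was called. The 20 values ran from −1.16 to 0.04, with LEU1 (−0.02), ILV3 (−0.02) and ILV5 (−0.05) among those near 0. Each sign was taken against a single pair of ρ0 vector cultures, which ties the genes together, and the count carries no test. An effect of TIP41 on Gcn4p targets was not tested. In ρ0 vector cells the median log2 ratio of replicate 1 to replicate 0 was 0.31 in the genes with a Gcn4 match and 0.02 in those without. These medians are descriptions of overlapping sets of genes, and LEU1, BAT1, ILV5, LEU9 and HOM2 hold both motifs.

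**Figure D5:**
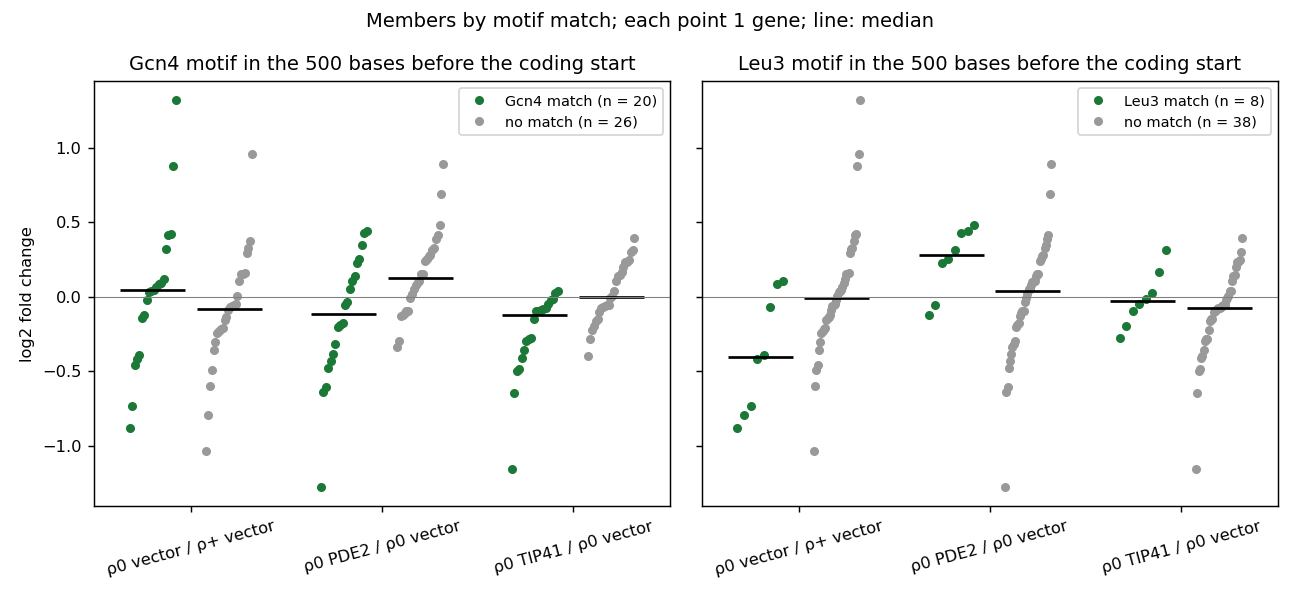
Log2 fold changes (vertical axis) of the 46 genes in 3 comparisons (horizontal axis), split by a Gcn4 motif (left, 20 with and 26 without) or a Leu3 motif (right, 8 with and 38 without) in the 500 bases before the coding start; each point is 1 gene and lines are medians. Genes with a Leu3 match have a median of −0.41 in ρ0 vector over ρ+ vector cells, against −0.01 in the rest.

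Neighbouring pathways give the setting, beside 7.49% of all genes tested that rose with loss of mtDNA and 6.38% that fell. Of 9 arginine genes, 2 rose with loss of mtDNA, CPA1 and ARG3, and none fell (edgeR; 0 lower also at an unadjusted p under 0.05), with a median log2 fold change of 1.12. Both fell with PDE2, where all 9 had a negative sign, but CPA1 (adjusted p = 0.0458) passed there in only 5 of 15 alternatives, up to 0.201, and ARG3 (0.0497) in 4 of 14, up to 0.321. Over all genes, 0.995% fell with PDE2, and 3094 of the 5832 tested had a negative sign. With the replicate block ARG5,6 passed as well, with loss of mtDNA (adjusted p = 0.021) and with PDE2 (0.00761). CPA1, a subunit of carbamoyl phosphate synthase, had 617 and 597 CPM in ρ0 vector cells against 272 and 288 CPM in ρ+ cells (log2 FC 1.12, SE 0.14, adjusted p = 1.36e-04). Of 12 sulfur genes, MET16 rose (passing in 8 of 15 alternatives) and MET6 and MET17 fell (13 and 10 of 15). MET6, methionine synthase, had 340 and 255 CPM in ρ0 vector cells against 834 and 823 CPM in ρ+ cells (log2 FC −1.48, SE 0.25, adjusted p = 0.00311). Among 15 other synthesis and carrier genes tested, AAT2, cytosolic aspartate aminotransferase, rose (log2 FC 0.91, SE 0.15, adjusted p = 9.30e-04), and OAC1 and SHM1, mitochondrial serine hydroxymethyltransferase, fell, SHM1 by a log2 FC of −0.47 (adjusted p = 0.035) that passed in 6 of 15 alternatives (up to 0.169). With the replicate block PRO3, pyrroline-5-carboxylate reductase of proline synthesis, was lower as well (adjusted p = 0.0498).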

How the data were processed

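RNA was measured in 8 libraries, 2 for each of 4 groups given by the sample titles. The authors aligned paired-end reads with TopHat2 2.0.14 to R64 and ran Cuffdiff 2.2.1.1. The estimated counts deposited by the authors are fragments per gene and library before scaling, with fragments of several alignments divided between genes, and 12.3% of the positive values are not whole (tolerance 0.001). The FPKM values deposited by the authors carry Cuffdiff's geometric scaling. The strand setting for counting is not given in the sources used here. Columns of the authors' comparisons hold fold changes and p-values and were not used.

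Estimated counts were rounded and fitted in R 4.3.3 with edgeR 4.0.16: filterByExpr (5832 genes), TMM scaling and robust quasi-likelihood dispersions over 4 groups, which left 4 residual degrees of freedom, and p-values were adjusted by the Benjamini-Hochberg method. The SE is the size of the log2 fold change over the square root of F. The code was tested on simulated data. In all 6 pairs of groups, libraries of the same number deviated together from their group means (correlations of 0.25 to 0.564 over 5639 genes with a mean CPM of at least 5). Different experimenters made the replicate numbers, so these may pair the samples. The main fit had no term for that pairing, except in the comparison of replicate 1 against replicate 0. The block fit (3 residual degrees of freedom) is an alternative, as were RLE size factors, DESeq2 1.42.0, no filter, limma 3.58.1 on log2(FPKM + 1) and log2(FPKM + 0.1), only the groups compared, and each library left out. Where a group is left with 1 library, that library is assumed to vary like the others.

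Of the 46 genes, 42 have the same start and end in the deposited table as in RefSeq, and 7 share a deposited locus with another gene. Counting precision follows from the lowest count of 57, and intervals between replicates rest on 2 libraries a group. Paralogues were compared over coding sequences: LYS20 and LYS21 are 88.3% identical, LEU4 and LEU9 77.0%, SER3 and SER33 82.6%, and ARO3 and ARO4 64.4%, so fragments of the first pair in particular may be divided.

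Genes given by library were GCN4, LYS2, the paralogue pairs, every gene called in loss of mtDNA, PDE2 or TIP41 against the ρ0 vector, and the 2 genes of each pathway with the largest log2 fold change with loss of mtDNA. The genes, lists and motifs were chosen with earlier results of these data known. Promoter windows were read from the RefSeq R64 genome.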

Additional observations from a re-analysis of the deposited data

How the results depend on the processing

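Of 493 recomputed log2 fold changes for 33 pairs of gene and comparison, none changed sign, 375 stayed on the same side of the threshold, 88 fell short of it and 30 newly passed it. The number of the 46 genes called was 6 for loss of mtDNA, 4 for PDE2 against ρ0 vector, 2 for PDE2 against ρ+ and 3 for TIP41 against ρ+. With limma on log2(FPKM + 1) or log2(FPKM + 0.1) these were 2, 0, 0 and 0. With the replicate block they were 11, 5, 4 and 5. Over all genes tested the block called 571 for PDE2 against ρ0 vector and 563 for PDE2 against ρ+, against 134 and 299 without it. In the same comparisons limma called 6 and 86 of all genes, the fit of only the groups compared 11 and 489, and DESeq2 247 and 220. For the 46 genes, the counts were 5, 0, 4 and 7 when only the groups compared were fitted, and 7, 4, 1 and 2 with DESeq2. The 1 for PDE2 against ρ+ was SER3 in place of TRP1 and BAT2. Leaving out 1 library gave 2 to 13 for loss of mtDNA, 0 to 11 for PDE2 against ρ0 vector, 0 to 4 for TIP41 against ρ0 vector, 0 to 3 for PDE2 against ρ+, 0 to 6 for TIP41 against ρ+, 0 to 2 for replicate 1 against replicate 0 and 0 throughout for PDE2 against TIP41. The highest values for the first 5 of these came without ρ0 vector replicate 0 (13, 11, 4, 3 and 6), and for the comparisons with ρ+ also without ρ0 vector replicate 1 (3 for PDE2 and 6 for TIP41). RLE size factors and the absence of a filter moved no count. For the other settings and comparisons the share of all genes called is not given here. Shifts in the counts are therefore not read as particular to the 46 genes. The cause of these shifts was not tested. With 2 libraries a group, the median SE of a log2 fold change with loss of mtDNA was 0.15 over the 46 genes, which limits the changes that can pass.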
